A study of Mus musculus with 4 samples.

Results

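Novus-only TOP2B peaks inside genes are the sites where topoisomerase IIβ (TOP2B) was called in mouse thymocytes with the Novus Biologicals antibody, but not with the Santa Cruz antibody, in the body of a protein-coding gene. A peak was included if it shared no base with any Santa Cruz peak, if its centre lay inside a protein-coding gene, and if that centre was more than 1 kb from every protein-coding transcription start. Members were thus selected on the called positions in both lists. The study itself took as its TOP2B peaks those called with both antibodies, to raise confidence in them. As members share no base with a Santa Cruz peak, they fall outside such a set where a common peak means a shared base. The study's methods do not state how peaks of both lists were matched. For colocalization in general, they extended TOP2B peaks by 1 kb on each side. The rule gave 883 peaks, which is 34.4% (exact Clopper-Pearson 95% interval 32.5% to 36.2%) of the 2570 Novus-only peaks, 24.8% of the 3564 peaks of the Novus list, and part of the 21318 peaks of both lists. The cells were thymocytes freshly taken from wild-type C57BL/6 mice of 4 to 6 weeks, and every library came from the same kind of untreated animal, with the antibody as the only stated difference. Of the 4 libraries, 2 were made with TOP2B antibodies, and those made with a TOP2A antibody and with rabbit IgG were not analysed here. Chromatin was fixed with formaldehyde, sonicated and immunoprecipitated, and a transposase added the sequencing adaptors while the chromatin was on the beads (ChIPmentation). How many animals went into a library is not given in the sources used here.

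Each TOP2B antibody was used in 1 library, so antibody and library cannot be told apart and no value has a replicate spread. No p-value is therefore given, and intervals cover counting error over the peaks of these libraries only. The lists give the position of each peak and no height or read number, so the depth behind a single peak is unknown. Members were compared with the 323 Novus peaks inside genes that overlapped a Santa Cruz peak (common peaks), and with the 7254 Santa Cruz-only peaks inside genes. The background was every window as wide as a Novus peak that is centred inside a protein-coding gene and over 1 kb from a start (4874292 windows without overlap). Positions are on the mouse genome build mm9, counted from 1, and genes are those of GENCODE M1.

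TOP2B relaxes DNA by passing a duplex through a transient double-strand break that it makes and reseals in another duplex. It is the form of topoisomerase II used by cells that are not dividing, and it is known for its presence at promoters, at enhancers and at sites bound by CTCF and cohesin, the proteins that anchor chromatin loops. Thymocytes are the developing T cells of the thymus, whose enhancers are bound by factors of the RUNX, ETS and E-protein families.

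Of the sequence motifs searched, the core motif of CTCF had the highest ratio of its share in Novus-only peaks inside genes to its share in all windows. To show what such a peak looks like, the 8 members with an exact match of the 12-base core consensus closest to the peak centre are printed below. They are whole peaks, read on the mm9 plus strand, 5′ to 3′, and capitals mark the match, which lies on the plus strand in *Ankdd1b* and *Crtac1* and on the minus strand in the other genes.
Ankdd1b intron, chr13:97201784-97201978: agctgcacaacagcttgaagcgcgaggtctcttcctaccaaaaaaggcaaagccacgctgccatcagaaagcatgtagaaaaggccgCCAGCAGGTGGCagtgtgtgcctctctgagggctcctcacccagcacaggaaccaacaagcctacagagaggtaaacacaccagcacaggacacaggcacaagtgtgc
Pkig intron, chr2:163545155-163545349: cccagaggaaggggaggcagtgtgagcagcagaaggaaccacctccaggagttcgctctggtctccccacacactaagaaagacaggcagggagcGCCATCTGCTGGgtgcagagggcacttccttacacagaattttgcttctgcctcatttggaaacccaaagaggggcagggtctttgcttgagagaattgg
Gcap14 intron, chr14:37750660-37750854: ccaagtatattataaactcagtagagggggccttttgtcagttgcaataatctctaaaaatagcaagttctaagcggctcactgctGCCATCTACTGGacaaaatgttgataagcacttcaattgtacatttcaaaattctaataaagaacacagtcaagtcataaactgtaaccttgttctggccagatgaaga
Cpeb3 intron, chr19:37143847-37144041: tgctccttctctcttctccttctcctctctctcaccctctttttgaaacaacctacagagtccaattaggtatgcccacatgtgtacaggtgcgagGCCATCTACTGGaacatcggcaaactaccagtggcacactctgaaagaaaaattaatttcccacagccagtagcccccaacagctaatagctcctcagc
Reep1 intron, chr6:71754174-71754368: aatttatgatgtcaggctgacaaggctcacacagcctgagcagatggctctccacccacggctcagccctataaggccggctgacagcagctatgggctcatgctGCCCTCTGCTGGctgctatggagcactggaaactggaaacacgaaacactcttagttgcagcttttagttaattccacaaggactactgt
Arntl intron, chr7:120411950-120412144: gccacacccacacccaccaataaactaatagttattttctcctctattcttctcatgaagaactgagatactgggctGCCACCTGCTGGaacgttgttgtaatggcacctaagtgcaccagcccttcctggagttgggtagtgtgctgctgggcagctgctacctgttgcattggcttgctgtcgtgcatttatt
Mdfic intron, chr6:15740187-15740381: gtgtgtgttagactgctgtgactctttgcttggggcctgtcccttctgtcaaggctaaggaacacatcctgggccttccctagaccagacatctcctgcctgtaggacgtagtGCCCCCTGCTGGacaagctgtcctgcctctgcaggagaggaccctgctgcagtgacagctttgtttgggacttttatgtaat
Crtac1 intron, chr19:42390486-42390680: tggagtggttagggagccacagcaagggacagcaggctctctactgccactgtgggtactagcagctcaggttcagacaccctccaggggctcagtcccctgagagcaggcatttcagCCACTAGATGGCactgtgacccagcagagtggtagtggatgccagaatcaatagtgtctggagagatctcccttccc

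All 8 lay in introns, between 2.0 kb (*Gcap14*) and 104.6 kb (*Cpeb3*) from the closest start. The match was 4 bp from the peak centre in *Ankdd1b* and *Pkig* and 27 bp away in *Crtac1*. The GC content ran from 36.9% in *Gcap14* to 56.9% in *Crtac1*, and the closest Santa Cruz peak was 2 bp away in *Mdfic* but 86.6 kb away in *Ankdd1b*. Among the host genes, *Arntl* encodes BMAL1, a transcription factor of the circadian clock, and *Cpeb3* an RNA-binding regulator of translation. *Pkig* encodes an inhibitor of protein kinase A.

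A small number of members had the composition of a CpG island instead. The 4 members with the highest ratio of observed to expected CpG among the 37 with a GC content of at least 60% are shown in the same way, with every CpG in capitals.
Celf2, chr2:6793340-6793534: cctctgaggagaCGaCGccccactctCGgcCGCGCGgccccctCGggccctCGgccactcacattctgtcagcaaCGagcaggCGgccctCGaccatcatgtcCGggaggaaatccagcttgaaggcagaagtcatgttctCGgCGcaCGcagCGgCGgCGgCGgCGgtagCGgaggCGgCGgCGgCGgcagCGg
Topors, chr4:40215389-40215583: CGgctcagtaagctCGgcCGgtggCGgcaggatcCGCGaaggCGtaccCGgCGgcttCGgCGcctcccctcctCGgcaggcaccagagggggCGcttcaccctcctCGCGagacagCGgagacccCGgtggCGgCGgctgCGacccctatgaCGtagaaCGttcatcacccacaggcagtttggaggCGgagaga
Ltb, chr17:35332749-35332943: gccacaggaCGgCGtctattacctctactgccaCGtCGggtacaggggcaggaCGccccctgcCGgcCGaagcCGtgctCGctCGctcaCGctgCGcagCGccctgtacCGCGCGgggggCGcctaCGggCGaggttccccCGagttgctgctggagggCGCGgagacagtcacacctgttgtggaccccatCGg
Carns1, chr19:4169688-4169882: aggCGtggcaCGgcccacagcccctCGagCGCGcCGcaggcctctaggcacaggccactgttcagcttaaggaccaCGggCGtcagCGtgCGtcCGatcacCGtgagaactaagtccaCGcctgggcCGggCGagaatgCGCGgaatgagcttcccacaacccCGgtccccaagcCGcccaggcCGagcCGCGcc

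These held between 22 and 26 CpG sites each. The peak in *Celf2*, which encodes an RNA-binding splicing regulator active in T cells, lay in an annotated exon that is not coding, 12.6 kb from a start. The peaks in *Topors*, *Ltb* and *Carns1* lay in coding exons, 1.4, 1.28 and 5.69 kb from the closest start. *Topors* encodes a ubiquitin and SUMO ligase that binds topoisomerase I, and *Ltb* encodes lymphotoxin beta, a cytokine that developing T cells use to signal to the thymic stroma. The *Carns1* peak ended 81 bp from a Santa Cruz peak, whereas the closest Santa Cruz peak to that in *Celf2* was 225 kb away.

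Most Novus-only peaks inside genes were intronic. Of the 883 members, 790 (89.5%, 87.2% to 91.4%) had their centre in an intron, 48 (5.44%, 4.03% to 7.14%) in a coding exon, 32 (3.62%) in a 3′ UTR, 2 in a 5′ UTR and 11 in other exons. Coding exons made up 3.06% and introns 93.3% of all windows, so that members lay in exons of any kind (10.5%, 8.58% to 12.8%) more often than the gene body provides (6.69%). Common peaks had the same intron share of 89.5% (85.6% to 92.6%), and in Santa Cruz-only peaks it was 91.0% (90.3% to 91.7%). Read on the longest transcript of each host gene, 22.8% of members lay in the first intron and 66.0% in a later one, close to the 23.7% and 68.8% of all windows.

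Members lay closer to transcription starts, and also to gene ends, than the average position in a gene body. This was so although the rule had removed the 1 kb next to a start. The median distance to the closest protein-coding start was 20.8 kb (95% interval of the median 18.6 to 23.7 kb, quartiles 8.38 and 46.5 kb), against 28.4 kb for all windows. It was 20.2 kb (16.1 to 23.5 kb) in common and 19.5 kb (18.7 to 20.3 kb) in Santa Cruz-only peaks, so the 3 sets of peaks did not differ beyond their intervals. The difference from the windows came mainly from the far end, as 7.81% (6.13% to 9.79%) of members and 19.4% of windows were over 100 kb from a start. Between 10 and 25 kb were 26.6% of members (23.7% to 29.7%) and 22.3% of windows. The median distance to the gene end was likewise shorter, 39.4 kb in members and 56.6 kb in windows. Counted once per peak or window, the gene around it had a median length of 98.0 kb for members and 142.5 kb for windows. Distances were not compared at equal gene length, so a closeness to starts as such was not tested.

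**Figure D1:**
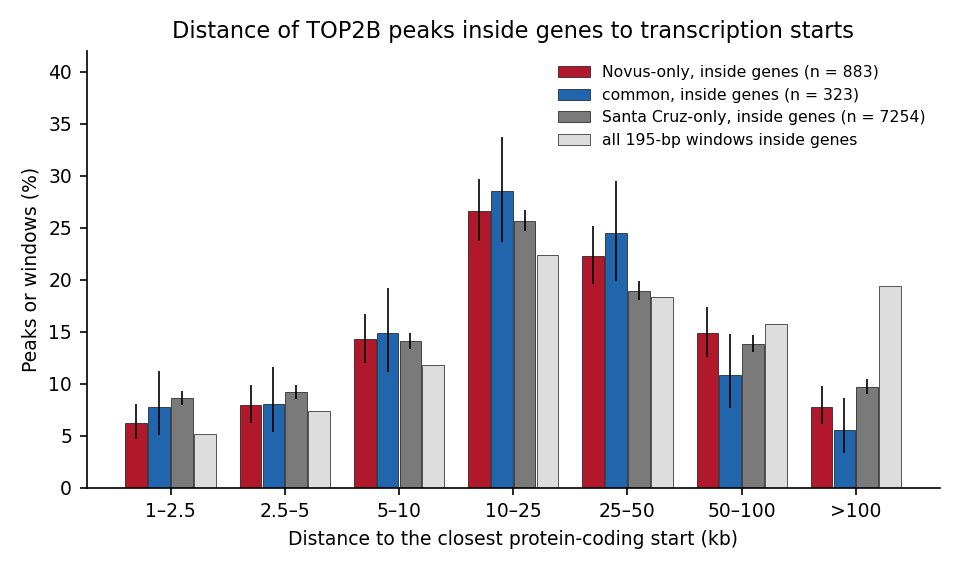
Distance from the peak centre to the closest protein-coding start, in 7 classes (kb, x axis), as the share of peaks or windows in each class (%, y axis), for Novus-only (red), common (blue) and Santa Cruz-only (grey) peaks inside genes and for all windows (light grey). Error bars are exact 95% intervals. Over 100 kb from a start, the bar for Novus-only peaks (7.81%) is below that for all windows (19.4%), and between 5 and 50 kb it is above.

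Along the gene itself, members were spread much as windows were, except for a higher share in the last 5 kb. With the host gene cut into 5 equal parts, from its start to its end, these held 17.3%, 19.9%, 20.2%, 20.5% and 22.1% of members, against 18.3% to 20.5% of windows. The last 5 kb before the gene end held 108 members (12.2%, 10.1% to 14.6%), while 8.83% of windows, 10.8% of common peaks and 11.5% of Santa Cruz-only peaks lay there. These 5 kb are a larger part of a shorter gene, and the share was not compared at equal gene length.

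Novus-only peaks inside genes were richer in G and C than the gene body. Their median GC content was 49.2% (95% interval of the median 48.7% to 49.7%, quartiles 45.1% and 53.3%), and the lowest and highest members were at 29.2% and 78.5%. All windows had a median of 42.6%, Santa Cruz-only peaks one of 47.7% (47.2% to 47.7%) and common peaks one of 50.3% (49.2% to 50.8%). Novus-only peaks between genes had the same median as members, whereas the 795 Novus-only peaks at promoters were at 63.6%. The median ratio of observed to expected CpG was 0.21 in members, 0.16 in windows and 0.75 at promoters. In 500 bp around the centre, 25 members (2.83%, 1.84% to 4.15%) had at least 50% GC and a CpG ratio of at least 0.6, the usual limits of a CpG island, against 583 (73.3%) of the promoter peaks. Of these 25, 13 lay in coding exons and 9 in introns. Only 19 members (2.15%) were within 1 kb of the start of an annotated non-coding gene, so most were not at such a start. Starts of non-coding transcripts of protein-coding genes were not part of this count.

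**Figure D2:**
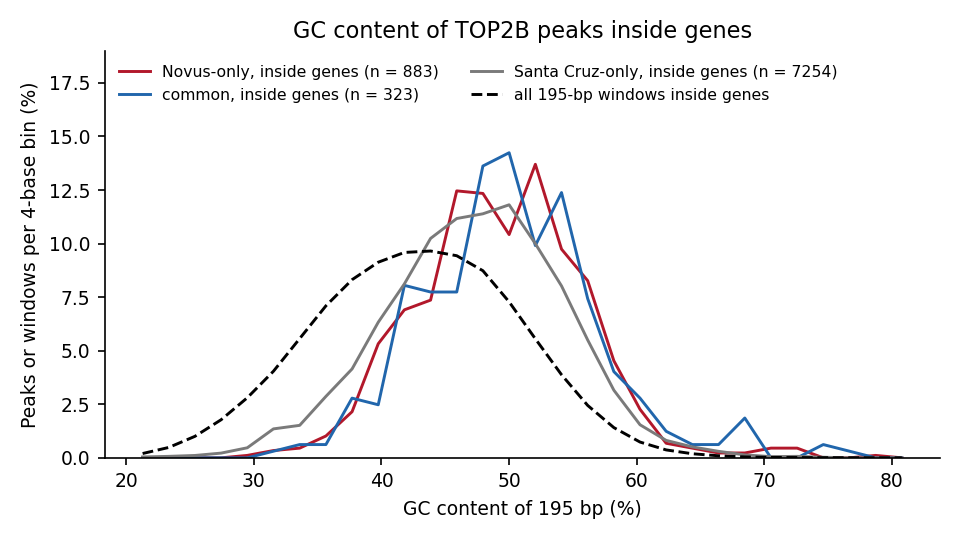
GC content over the width of a Novus peak (%, x axis) for Novus-only (red), common (blue) and Santa Cruz-only (grey) peaks inside genes and for all windows (dashed), as the share of peaks or windows (%, y axis) in bins of 4 bases. The curves of all 3 peak sets lie to the right of that of the windows, whose median is 42.6%, and that of Novus-only peaks has its median at 49.2%.

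The CTCF core was searched as its 12-base consensus on both strands, with up to 1 mismatch, in a window as wide as a Novus peak around each peak centre. CTCF is the zinc-finger protein that, with cohesin, marks the borders of chromatin loops. A match was found in 117 members (13.3%, 11.1% to 15.7%), against 1.73% of all windows, a ratio of 7.66. Of the 117, 40 were exact, 4.53% (3.26% to 6.12%) of all members, and 0.106% of windows held an exact match. The share in members was lower than in common peaks, of which 103 (31.9%, 26.8% to 37.3%) had a match, a difference of -18.6 points (Newcombe 95% interval -24.3 to -13.2). It was higher than in Santa Cruz-only peaks (605, 8.34%, 7.71% to 9.0%), by 4.91 points (2.73 to 7.38). Novus-only peaks between genes, at 16.1%, did not differ from members beyond that interval (-2.89 points, -6.19 to 0.41), and those at promoters were at 4.03%.

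The matches gathered around the centre of the peaks. In each of the 4 bins of 50 bp around the centre, 27 to 35 members had a match (mean 3.65%), whereas the 40 bins between 1 and 2 kb away held 1 to 10 members each (mean 0.614%), a ratio of 5.95. The same ratio was 12.8 in common and 3.71 in Santa Cruz-only peaks. The bin from 100 to 150 bp after the centre still held 29 members (3.28%), so matches were not confined to the innermost bins. In 60 of the 117 members with a match (51.3%, 41.9% to 60.6%), the best match was within 50 bp of the centre. The best match was sought only within the width of a peak, which by itself places many matches this close. That share therefore does not show centring. The best match lay on the strand of the host gene in 47 of 117 (40.2%, 31.2% to 49.6%).

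**Figure D3:**
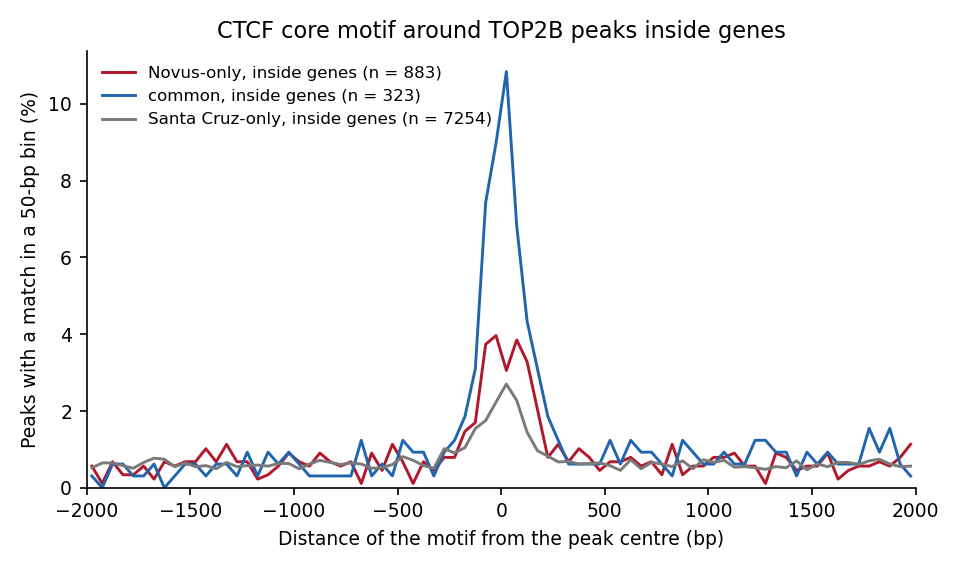
Share of peaks with a CTCF core match (%, y axis) in bins of 50 bp by distance of the match from the peak centre (bp, x axis), for Novus-only (red), common (blue) and Santa Cruz-only (grey) peaks inside genes. Around the centre the mean of the 4 bins is 3.65% for Novus-only peaks, between common (8.51%) and Santa Cruz-only peaks (2.24%), and beyond 1 kb all 3 lines lie near 0.6%.

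As GC-rich sequence holds the CTCF core more often, shares were also compared among peaks and windows of similar GC content. Below 45% GC, 30 of 209 members (14.4%, 9.90% to 19.8%) had a match, against 1.22% of windows and 6.25% of Santa Cruz-only peaks. Above 55% GC, 28 of 156 members (17.9%, 12.3% to 24.9%) had one, against 3.82% of windows and 12.4% of Santa Cruz-only peaks. The classes from 45% to 50% and from 50% to 55% gave 10.3% and 12.6% of members, and 2.09% and 2.60% of windows. Santa Cruz-only peaks were at 7.77% and 10.1% there. In every class the share in members was thus above that of windows and below that of common peaks, which reached 34.2%. It was also above that of Santa Cruz-only peaks, but their intervals were apart only below 45% GC and overlapped in the other classes. By place, 108 of 790 intronic members (13.7%), 6 of 48 in coding exons (12.5%) and 2 of 32 in 3′ UTRs (6.25%) had the core. Over the 7 classes of distance to a start, the share ran from 8.73% (4.44% to 15.1%) between 5 and 10 kb to 18.6% (10.3% to 29.7%) between 2.5 and 5 kb, with intervals that overlap.

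An ETS, an E-box and a RUNX word were also more frequent in members than in the gene body, but by smaller factors. Over all members, the words of GATA, Ikaros, TCF1 and LEF1, and ROR factors, given below, were not above the windows beyond their intervals. These and the following motifs were searched as exact words on both strands. The ETS core AGGAAGT, bound by ETS1 and its relatives, was in 90 members (10.2%, 8.28% to 12.4%), against 4.65% of windows and 7.39% of Santa Cruz-only peaks, from which members differed by 2.80 points (0.873 to 5.05). The E-box CAGCTGC, a word for HEB and E2A, was in 74 members (8.38%, 6.64% to 10.4%), against 3.5% of windows and 5.86% of Santa Cruz-only peaks (a difference of 2.52 points, 0.776 to 4.60). The RUNX word TGTGGTT was in 65 members (7.36%, 5.73% to 9.29%), against 4.73% of windows, and its difference from Santa Cruz-only peaks (5.79%) was 1.57 points (-0.071 to 3.55), an interval that includes 0. Among members and windows of similar GC content, in the 4 classes used above, the interval for the ETS core lay above the share of windows in all 4 and that for the RUNX word in 3, but that for the E-box only in 1 (11.7%, 8.01% to 16.4%, against 6.85% of windows between 50% and 55% GC). From common peaks, which had 8.98%, 8.98% and 8.05% in the same order, members did not differ beyond the intervals.

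**Figure D4:**
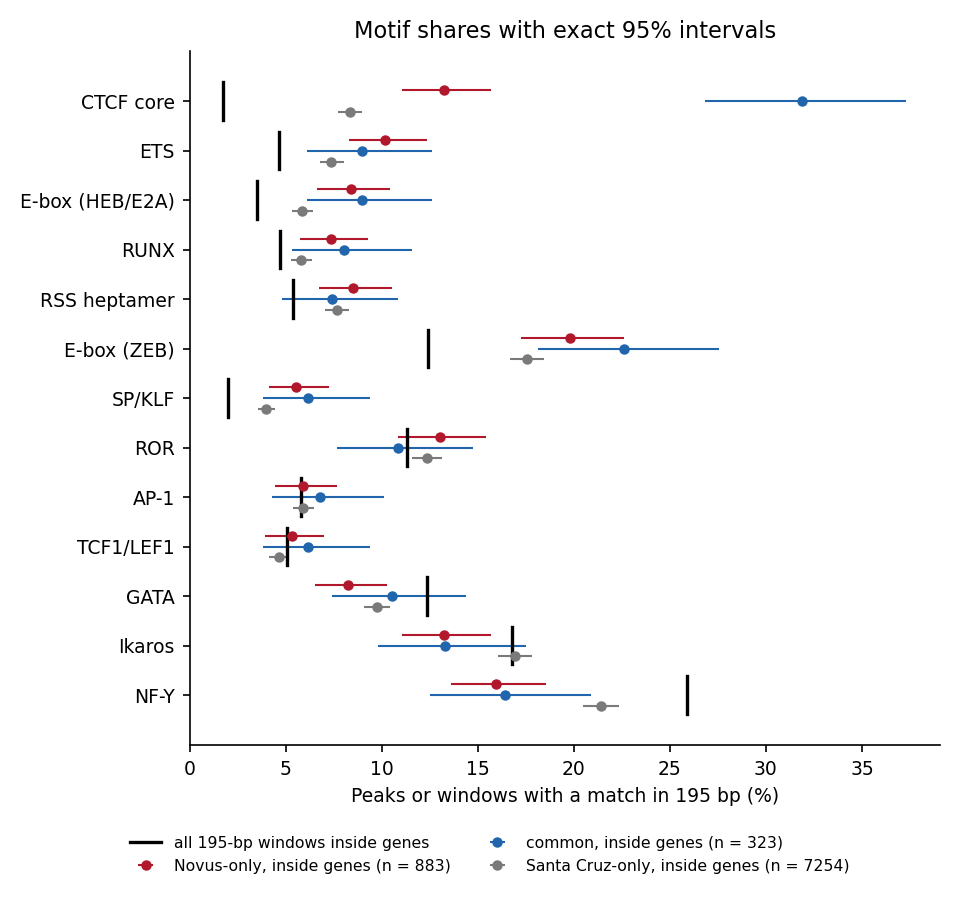
Share of peaks (%, x axis) with a match of each of 13 motifs (y axis) in a window as wide as a Novus peak, for Novus-only (red), common (blue) and Santa Cruz-only (grey) peaks inside genes, with exact 95% intervals as bars and the share of all windows as a black line. For the CTCF core the 3 peak sets stand apart (13.3%, 31.9% and 8.34%), whereas for ETS, E-box and RUNX words the intervals of Novus-only and common peaks overlap.

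Over all members, other words above their share of windows were E-box CAGGTG, a site of ZEB1 and of E proteins, in 175 members (19.8%, 17.2% to 22.6%, windows 12.4%), the SP and KLF word GGGCGG in 49 (5.55%, 4.13% to 7.27%, windows 2.02%), and the run GGGG in 618 (70.0%, 66.8% to 73.0%, windows 56%). CAGGTG can be part of a CTCF core, and in members without a core its share was 19.1% (16.3% to 22.0%), against 12.3% of such windows. At similar GC content, however, the intervals for CAGGTG and GGGG included the share of windows in all 4 classes. For CAGGTG, members and windows were at 11.5% and 8.48% below 45% GC and at 30.1% and 25.6% above 55%. For GGGG they were at 45.9% and 42.8% in the former class and at 87.8% and 90.2% in the latter. GGGCGG was in 43.3% of the Novus-only promoter peaks. In members it rose with GC content, from 0.957% below 45% GC to 16.7% (11.2% to 23.5%) above 55%, where windows had 11.2%. The heptamer CACAGTG, the core of the signal at which the RAG recombinase cuts, was in 75 members (8.49%, 6.74% to 10.5%, windows 5.36%), and in Santa Cruz-only peaks its share was 7.65%. Its interval lay above the windows of similar GC content in 1 of 4 classes, between 45% and 50% GC (12.5%, 8.85% to 17.1%, against 6.63%). The nonamer that completes such a signal was not searched.

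Over all members, other words were less frequent than in windows. The GATA word AGATAA was in 8.27% of members (6.54% to 10.3%, windows 12.3%), the NF-Y word CCAAT in 16.0% (13.6% to 18.6%, windows 25.9%) and the Ikaros word TGGGAA in 117 members (13.3%, 11.1% to 15.7%, windows 16.8%). For the GATA word this held only below 45% GC (9.57%, 5.94% to 14.4%, against 15.9% of windows). Between 50% and 55% GC members were at 8.50% (5.34% to 12.7%) and windows at 5.87%, and above 55% they were at 3.21% and 3.20%. The NF-Y word was below the windows of similar GC content, beyond its interval, in 3 of 4 classes and the Ikaros word in 2. For the latter word, Santa Cruz-only peaks were at 16.9% and members below them by 3.68 points (-5.93 to -1.14 for members minus Santa Cruz-only). The intervals of the remaining words included the share of windows. They were CTTTGAA of TCF1 and LEF1 in 5.32% (windows 5.05%), TGANTCA of AP-1 in 5.89% (windows 5.78%), AGGTCA of ROR factors in 13.0% (windows 11.3%) and AAGATGGC of YY1 in 1.25% (windows 1.56%). Longer words with a CpG were near 0 in members and windows alike, with 1 member each for the ETS word CCGGAAGT (windows 0.126%) and for GCGCATGC of NRF1 (windows 0.258%), and 2 for TGACGTCA of CREB (windows 0.112%). The YY1 word was in 3.72% of common peaks, a difference of -2.47 points (-5.19 to -0.617).

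Of the 17 words other than the CTCF core, 7 had an interval above the share of windows and 3 an interval below it. With 500 bp around each centre these were 9 and 2, which included all 7 and 2 of the 3. Of the 7, the ETS core alone was above the windows in all 4 classes of GC content.

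The CTCF core and the ETS, RUNX and HEB words were counted together in the same members. At least 1 of the ETS (AGGAAGT), RUNX and HEB words described above was in 210 members (23.8%, 21.0% to 26.7%), against 12.4% of windows and 17.7% of Santa Cruz-only peaks. Among members with a CTCF core the share was 24.8% (17.3% to 33.6%), and among those without it 23.6% (20.7% to 26.8%). In 585 members (66.3%, 63.0% to 69.4%) neither the core nor any of these words was found. At least 2 of the 3 words were in 19 members (2.15%, 1.30% to 3.34%) and 0.495% of windows. These included a peak in an intron of *Rel*, an NF-κB subunit of lymphocytes, 1.12 kb from a start, and one in an exon of *Lig1*, which encodes DNA ligase I.

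The distance from members to Santa Cruz peaks is a description, since the rule was set on it. The closest Santa Cruz peak was a median of 20.1 kb away (quartiles 6.28 and 48.8 kb). Within 1 kb were 106 members (12%), and 54 were closer than the width of a Santa Cruz peak. At the limit of the rule, members in *Nebl*, *Camta1* and *Wwox* touched a Santa Cruz peak without sharing a base, and Novus peaks in *Txk*, *Prim2* and *Mbnl2* shared 3, 4 and 4 bases and were therefore common. At the limit of 1 kb from a start, members in *Hmgxb4*, *Asgr1* and *Gm572* lay 1004, 1024 and 1032 bp away, and peaks 986, 984 and 982 bp from a start, in *Minpp1*, *Fcho2* and *Lig4*, were left out. Of the 106 members within 1 kb of a Santa Cruz peak, 13 (12.3%, 6.70% to 20.1%) had a CTCF core, against 104 of the 777 others (13.4%), a difference of -1.12 points (-6.71 to 6.79). The central 75 bp of each member, as long as a read, occurred only once on the assembled mm9 autosomes, X and Y, with 0 of 883 repeated (exact interval up to 0.417%). Copies with a mismatch, or on unplaced sequence, were not counted.

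The 883 members lay in 789 host genes, 3.53% of the 22350 protein-coding genes. A peak inside several genes was assigned to the shortest of them. Of the hosts, 715 had a single member, 62 had 2, 6 had 3, 4 had 4 and 2 had 5. Host genes were long, with a median of 91.7 kb (quartiles 44.0 and 168.8 kb) against 15.4 kb for all protein-coding genes. The share of genes with a member accordingly rose with length, from 0.373% of genes under 10 kb to 16.5% of those over 300 kb. Per Mb of eligible gene body, however, there were 1.39 members in genes under 10 kb, 0.934 between 10 and 30 kb, 1.28 between 30 and 100 kb, 1.08 between 100 and 300 kb and 0.428 above 300 kb. In the last class Santa Cruz-only peaks (4.42 per Mb) and common peaks (0.125 per Mb) were also sparser than in the other classes, where they ran from 8.11 to 11.4 and from 0.421 to 0.497 per Mb.

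**Figure D5:**
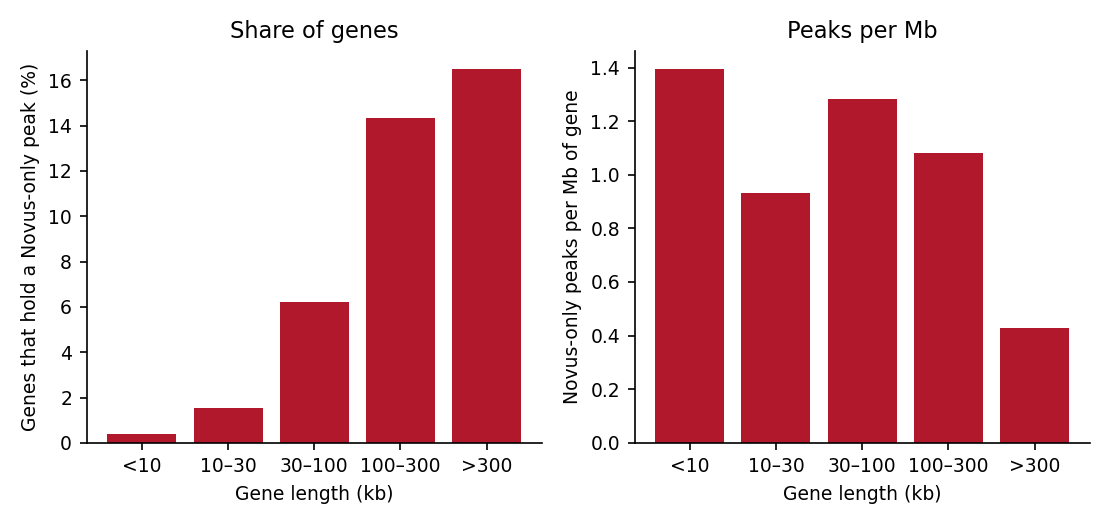
Protein-coding genes by length class (kb, x axes), with the share of genes that hold a Novus-only peak over 1 kb from a start (%, left y axis) and the number of such peaks per Mb of eligible gene body (right y axis), as bars from 0. The share of genes rises to 16.5% in the class over 300 kb, in which the number per Mb falls to 0.428.

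Host genes also had a Novus peak at their own start more often than genes without a member did. A Novus peak within 1 kb of a start of the same gene was found for 69 of the 789 hosts (8.75%, 6.87% to 10.9%) and for 4.98% (4.69% to 5.28%) of the genes without a member, a difference of 3.77 points (1.97 to 5.96), with 5.11% over all genes. The groups differ in length, and within length classes the order was not the same throughout. The shares of hosts and other genes were 11.6% and 7.61% between 100 and 300 kb and 9.45% and 7.82% between 30 and 100 kb, but 2.13% and 6.05% between 10 and 30 kb. Inside the gene, 470 hosts (59.6%, 56.1% to 63.0%) also held a Santa Cruz-only peak and 61 (7.73%) a common peak, while 311 (39.4%, 36.0% to 42.9%) held no other TOP2B peak over 1 kb from a start.

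The 10 genes with the most members held 38 of them, all in introns. *1300010F03Rik* (353 kb, chromosome 14) had 5. *Gm20388*, an annotated model of 4435 kb on chromosome 8 that spans many other genes, also had 5. *Rapgef4*, *Xylt1*, *Aff3* and *Pde4d* had 4 each. *Rapgef4* encodes EPAC2, a cAMP-activated exchange factor of RAP1, and *Pde4d* a phosphodiesterase that degrades cAMP. *Xylt1* encodes the enzyme that starts glycosaminoglycan chains on proteoglycans, and *Aff3* a nuclear protein of lymphoid cells from a family of elongation factors. *Prdm10*, *Sdccag8*, *Ssbp2* and *Zdhhc14* had 3 each. *Prdm10*, a zinc-finger gene of 98.0 kb, had the highest density of the 10 with 3.06 per 100 kb and held no other TOP2B peak inside, and 2 of its members lay the width of a peak apart. A CTCF core was found in 8 of the 38 members, and in 13.3% of all members, a difference that was not tested. None of the 10 genes had a Novus peak within 1 kb of an own start, whereas *1300010F03Rik*, *Aff3*, *Pde4d*, *Ssbp2* and *Zdhhc14* had a Santa Cruz peak there.

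Genes were also read by 12 lists of T-cell, genome-stability and marker genes. These held 327 genes, of which 33 had a member, with 40 members in all, 36 of them in introns. A CTCF core was in 2 of the 40, 1 in *Bach2* and 1 in *Itpr2*, and in 13.3% of all members, a difference that was not tested. The share of hosts is to be read beside 3.53% of all genes and beside gene length, so members per Mb of eligible gene body are given, which were 0.929 over all genes.

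Among 35 T-lineage transcription factors, 6 (17.1%) held 7 members, or 2.04 per Mb, with a median gene length of 57.3 kb. *Zeb1*, a zinc-finger repressor at E-boxes, had 2, at 15.9 and 117.8 kb from a start and in introns. *Runx1*, which is required to make T-cell progenitors, had 1 in an intron, 37.7 kb from a start, next to 7 Santa Cruz-only peaks in the gene. *Tox*, a factor of CD4 T-cell development, had 1 in its first intron that lay 94 bp from a Santa Cruz peak. *Tcf12*, which encodes the E protein HEB, had 1 in an intron, and it was the only one of these 6 with a Novus peak at its start. The members in *Foxp1*, a factor of T-cell quiescence, and *Satb1*, a chromatin organizer of thymocytes, lay in annotated 3′ UTRs, that of *Satb1* 805 bp from a Santa Cruz peak.

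Among 50 genes of the T-cell receptor and its signalling, 7 (14.0%) held 8 members, or 2.32 per Mb, with a median length of 46.6 kb. *Fyn*, a kinase that phosphorylates the receptor, had 1 in its first intron, 1.78 kb from a start. *Themis*, which thymocytes need for positive selection, had 1 in its first intron at 21.2 kb, with a RUNX word. *Prkcq*, the protein kinase C of the T-cell synapse, and *Itpkb*, a kinase of inositol phosphates needed for T-cell development, had 1 each, at 15.0 and 62.8 kb. *Itpr2*, an IP3-gated calcium channel, had 2, and that at 13.0 kb had a CTCF core 3 bp from its centre. *Rasa2*, which switches RAS off, and *Sla*, an adaptor that lowers receptor levels, had 1 each, and *Sla* held no other TOP2B peak inside.

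The genes that handle DNA held 3 members in all, and their difference from all genes was not tested. Of 31 genes of V(D)J recombination and break repair, only *Lig1* (3.23%, 0.634 per Mb) had a member, 2.88 kb from a start and 76.9 kb from a Santa Cruz peak. Of 31 genes of topoisomerases, cohesin and genome folding, *Top2b* itself and *Pds5a*, a regulator of cohesin release, had 1 member each (6.45%, 1.04 per Mb). The *Top2b* member lay in its first intron, at chr14:17212802-17212996, 15.2 kb from a start, with no Santa Cruz peak closer than 44.4 kb. Both genes also had a Novus peak at a start, and *Pds5a* had a Santa Cruz peak there too. Over 1 kb from a start, neither gene held a Santa Cruz-only or common peak.

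Of 50 genes of lymphoid leukaemia and lymphoma, 7 (14.0%) held 10 members, or 2.62 per Mb, with a median length of 61.9 kb, and *Runx1* and *Zeb1* are among them again. *Bcl2*, which blocks apoptosis, had 1 in its first intron, 96.6 kb from a start. *Dnmt3a*, a DNA methyltransferase, had 2 at 4.98 and 4.94 kb, of which the former lay 154 bp from a Santa Cruz peak. *Bach2*, a repressor that restrains effector programmes in lymphocytes, had 2, and that at 2.57 kb had a CTCF core 60 bp from its centre. *Jak1*, a kinase of cytokine receptors, and *Pik3r1*, the regulatory subunit of PI3-kinase, had 1 each, and in *Pik3r1* it lay 284 bp from a Santa Cruz peak.

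Of 46 chromatin and transcription regulators, 9 (19.6%) held 11 members, or 2.77 per Mb, with a median length of 80.01 kb. *Hdac4*, a histone deacetylase, and *Arid2*, a subunit of the PBAF remodelling complex, had 2 each. *Smarca4*, the BRG1 ATPase of SWI/SNF complexes, *Arid1b*, another SWI/SNF subunit, and *Chd7*, a chromodomain remodeller, had 1 each, and in *Chd7* it lay 13 bp from a Santa Cruz peak. *Crebbp*, a histone acetyltransferase, *Kdm2b*, a subunit of a Polycomb complex, *Tet1*, which oxidizes methylcytosine, and *Med13l*, a subunit of Mediator, had 1 each as well. All 11 were intronic.

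Markers of other cells of the thymus and very long neuronal genes served for comparison. None of 16 thymic epithelial, 12 B-cell, 13 myeloid and 13 erythroid marker genes had a member. Of 13 stromal and endothelial markers only *Tek*, the endothelial TIE2 receptor, did (7.69%, 1.49 per Mb). These lists cover 0.375 to 1.03 Mb each of eligible gene body, so that few members could be expected in any of them. Of 23 very long neuronal genes, with a median of 1412 kb, 2 (8.70%) had members, *Magi2* with 2 and *Ptprd* with 1. Per Mb of eligible gene body this list held 0.0913 members, against 0.929 over all genes. Peak lists hold no expression, so the labelled cell type could not be checked against its marker transcripts.

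Across chromosomes, members per Mb of eligible gene body ran from 0.755 on chromosome 6 to 1.21 on chromosome 11 among the autosomes. Chromosome X had 7 members in 43.1 Mb, 0.162 per Mb, and there common (0.0464 per Mb) and Santa Cruz-only peaks (2.99 per Mb) were sparser than on any autosome too. Members were mostly far from each other, with a median gap of 1216 kb to the next one on the same chromosome. Of 863 such gaps, 2 were under 1 kb and 10 under 10 kb.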

How the data were processed

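TOP2B ChIPseq was carried out in thymocytes with 2 antibodies, 1 library each. The deposited unit is a position, since the authors' lists give the chromosome, start and end of each peak and a deposited score that is 0 throughout. Per the study's methods and the labels, the authors' alignment to mm9 used Bowtie 1.2.0. HOMER (factor style) gave the peaks of each library, filtered for 10-fold enrichment over IgG, so weaker binding is not listed and a missing peak does not mean missing binding. Peak width is constant within each list. No tests could be fitted to positions without scores or replicates, and shares have exact Clopper-Pearson 95% intervals (Newcombe for differences).

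The members were selected on the lists themselves, and the members, motifs and gene lists were chosen with earlier results of these data known. Place in the gene was read from GENCODE M1 in the order coding exon, 5′ UTR, 3′ UTR, other exon and intron. Genes named are the 10 with the most members, every gene of the lists with a member, the peaks whose sequence is printed, and those at the limits of the rule; *Rel* was named after its values had been seen. Sequences are from the mm9 reference, which is not soft-masked, so the planned share of repeats could not be computed and copies of the central 75 bp were counted instead. The intersection, motif and interval code was tested on simulated data. Python 3.11.15, numpy 2.4.6, scipy 1.17.1, pandas 2.3.3, numba 0.67.0, statsmodels 0.14.6 and matplotlib 3.10.9 were used.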

Additional observations from a re-analysis of the deposited data

How the results depend on the processing

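The number of members, 883 as reported, ran from 777 with Santa Cruz peaks extended by 1 kb to 993 when sharing required at least 50% of both peaks, and under a definition chosen after the data had been seen (any annotated gene, with protein-coding starts) it was 937. Under the 6 planned definitions of a member, the intron share (88.9% to 90.3%), the CTCF share (13.2% to 14.6%) and the median distance to a start (20.8 to 23.2 kb) moved by less than their intervals. The CTCF share, 13.3% as reported, was 22.7% in windows of 500 bp (4.51% of all gene windows), 4.53% with exact matches (0.106%) and 30.8% with up to 2 mismatches (13.3%), so its size depends on the search while it stayed above that of the windows in each. The median GC content was 48.2% over 500 bp, against 49.2% over the width of a peak. With every gene that a peak lies in counted, there were 806 host genes. No paired analysis was possible because each antibody had 1 library and no result came from a test between samples. A stricter score threshold was not run, since the score is 0 for every peak. With no heights, a site just under the authors' 10-fold limit in the Santa Cruz library cannot be told apart from an unbound one.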
